A study of Mus musculus with 4 samples.

Results

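Cathepsins are the proteases of the lysosome, and the genes described here are the 10 cathepsin genes Ctsa, Ctsb, Ctsc, Ctsd, Ctse, Ctsh, Ctsl, Ctso, Ctss and Ctsz. They were picked by symbol from a table of 22417 mouse genes, in which 23 genes are described as cathepsins. Cathepsin K, the best known protease of bone resorption, was left out of the group and serves as a reference. The values are counts of ribosome-protected fragments, the short pieces of mRNA that a translating ribosome shields from nuclease. Cells were bone-marrow-derived monocytes given RANKL, the cytokine that drives them towards osteoclasts, for 3 days. In 2 libraries the cells came from wild-type (WT) mice, and in 2 from Nat10 conditional knockout (cKO) mice. Nat10 encodes the acetyltransferase that makes N4-acetylcytidine in RNA. All 4 libraries shared the RANKL treatment and the cycloheximide wash that holds ribosomes on mRNA. The labels give neither the age and sex of the mice nor the Cre driver nor the deleted exons. Nor do they say whether replicates are separate mice or cultures, so the p-values measure the spread between these libraries, which may be technical.

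Cathepsins are made as inactive precursors on ribosomes of the endoplasmic reticulum, carried to the lysosome largely by mannose-6-phosphate receptors, and activated there when acid and other proteases remove a propeptide. Most belong to the papain family of cysteine proteases, here cathepsins B, C, H, L, O, S and Z. Cathepsins D and E are aspartic proteases and cathepsin A is a serine carboxypeptidase. In macrophages they digest what the cell takes up and trim proteins for antigen presentation. In osteoclasts lysosome-related vesicles release cathepsin K onto bone.

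The libraries held 906937 to 3014620 counts, and values are given as CPM, counts scaled to library size with TMM factors. WT replicate 2, the largest, stood apart. It had counts for the fewest genes, 9402, against 10508 to 10798 in the other libraries. Its correlation with the other libraries (log2 of CPM plus 1, across 7953 genes) was 0.753 to 0.790, against 0.921 within the cKO pair and 0.859 to 0.873 between WT replicate 1 and the cKO libraries. Values without it are given beside many of the results. Nat10 itself had 101 and 72 counts in cKO against 77 and 148 in WT, which overlap, so the knockout label was not checked by these counts (log2 fold change -0.18, SE 0.41, adjusted p = 0.907, edgeR). All 8 fixed monocyte and macrophage markers had counts. All 4 T cell and all 5 erythroid markers were at 0 in every library.

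Summed over the 10 genes, the cathepsins took a similar part of the counts in both genotypes. They made up 2.90% and 3.04% of all counts in cKO replicates 1 and 2 and 2.93% and 2.70% in WT replicates 1 and 2. The counting intervals (95%, Clopper-Pearson) reached from 2.87% to 2.93% in cKO replicate 1 and from 2.68% to 2.72% in WT replicate 2. WT replicate 1 lay between the cKO libraries. Within that sum 1 gene, Ctsz, passed the test of genotype.

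Of the 9 cathepsins with enough counts for the test, 1 rose in cKO, 0 fell and 8 did not pass (edgeR quasi-likelihood test, adjusted p under 0.05 over all 7953 genes). Over all genes tested, 0.641% were called higher and 0.754% lower. At an unadjusted p under 0.05 there were 2 cathepsins, Ctsz higher and Ctss lower, where 5.63% of all genes were higher and 6.5% lower. DESeq2 called 1 higher and 0 lower, where it called 2.59% and 2.43% of all genes, and limma-voom 2 higher and 1 lower, where it called 5.18% and 2.35% of all genes. The median log2 fold change of the 9 was -0.08 and that of all genes -0.01. Ctse, the tenth gene, had too few counts to be tested.

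**Figure D1:**
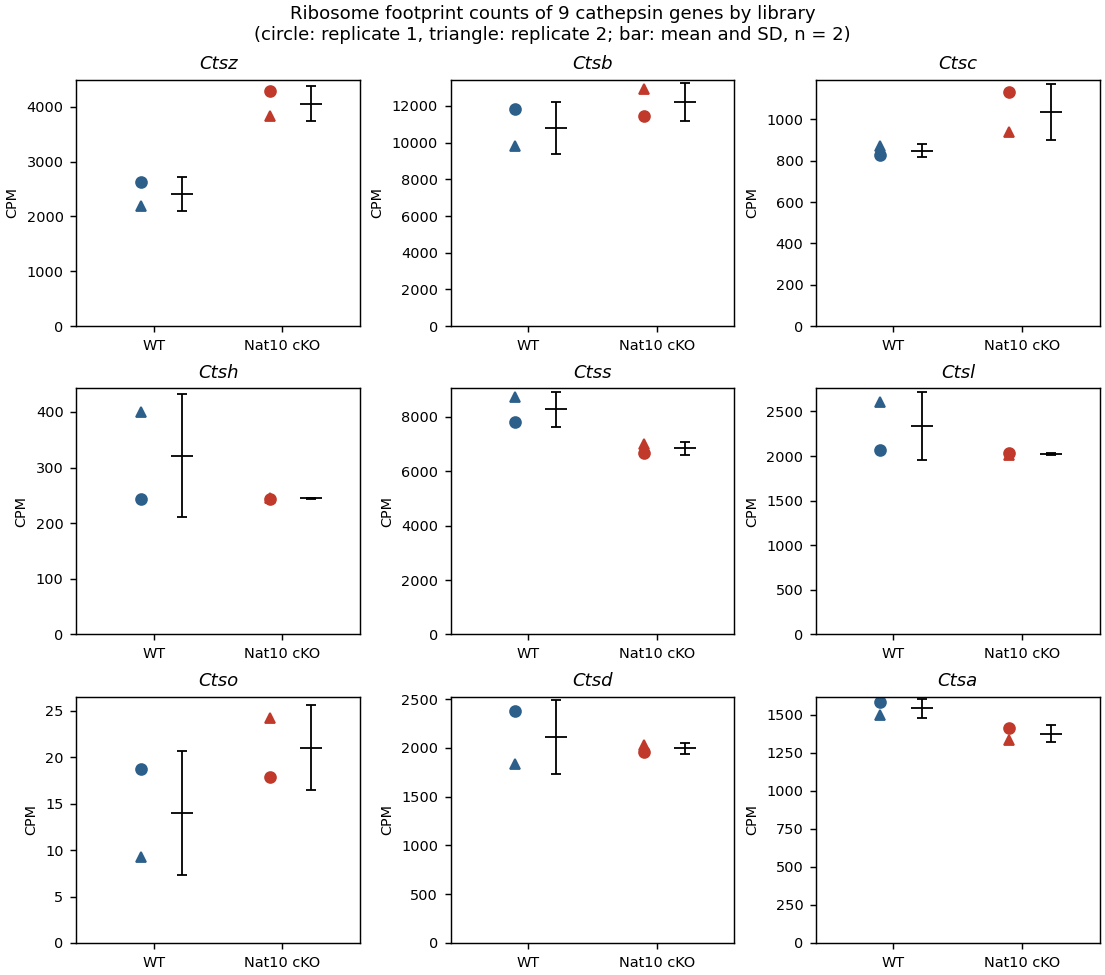
Library-scaled counts (CPM) of the 9 tested cathepsin genes in each library, each panel with its own axis from 0. Circles are replicate 1, triangles replicate 2, and bars the mean and SD of 2 libraries. For Ctsz both cKO libraries lie well above both WT libraries, while for Ctsh, Ctsd and Ctsl the cKO libraries nearly coincide and the WT libraries lie apart.

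Cathepsin Z (also called cathepsin X) is a carboxypeptidase that removes single residues from the end of proteins and is abundant in monocytes and macrophages. Its gene (ENSMUSG00000016256) lies on the minus strand of chromosome 2, 174269286 to 174280832 in GRCm39, the build of all gene positions here. It had 6243 and 5683 counts in cKO replicates 1 and 2 against 2380 and 6381 in WT replicates 1 and 2. Scaled to library size these were 4282 and 3831 CPM in cKO replicates 1 and 2 and 2625 and 2188 CPM in WT replicates 1 and 2. The lower cKO library was thus above the higher WT library, and the gap between groups was wider than the gap within either. The cKO mean was 4056 ± 319 CPM and the WT mean 2407 ± 309 CPM (SD, n = 2 each). Ctsz rose 1.69-fold, a log2 fold change of 0.75 (SE 0.13, 95% interval 0.47 to 1.04, adjusted p = 0.0249, edgeR). Without WT replicate 2 it rose by 0.64 (adjusted p = 3.63e-06, edgeR), a setting in which 2.94% of genes were called higher. Without cKO replicate 1 the value was 0.70 and missed the threshold (adjusted p = 0.0676, edgeR).

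The stretch before the start of Ctsz is shown because it is the 1 cathepsin that passed. RefSeq's promoter table (GRCm38.p6, an older build than that of the counts) held 7 of the 10 genes. The sequence below covers the 150 bases before the start at chr2:174439040-174439189, minus strand, with the GC-box core GGGCGG in capitals.
Ctsz: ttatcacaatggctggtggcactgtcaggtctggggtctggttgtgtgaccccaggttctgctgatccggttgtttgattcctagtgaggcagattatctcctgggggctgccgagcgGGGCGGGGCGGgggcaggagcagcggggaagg
The GC boxes begin 32 and 27 bases before the start and share a base. This core, searched on both strands of windows of 300 bases, was in 35.7% of all 32851 promoters, so it is common. A further match, on the other strand, begins 2 bases past the first base of Ctsz. The E-box CACGTG and the interferon-response pattern GAAANNGAAA did not occur in the Ctsz window.

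The other cysteine exopeptidases, cathepsins B, C and H, did not pass. Cathepsin B cuts inside proteins and also removes dipeptides from their ends. Ctsb (ENSMUSG00000021939, chromosome 14, 63359911 to 63383372, plus strand) stood at 11459 and 12926 CPM in cKO and at 11813 and 9793 CPM in WT. The groups overlapped, since cKO replicate 1 was below WT replicate 1. Its log2 fold change was 0.17 (SE 0.11, 95% interval -0.08 to 0.43, adjusted p = 0.592, edgeR). The interval's upper end lies below the estimate for Ctsz. Without WT replicate 1 Ctsb passed (0.35, adjusted p = 0.00319, edgeR), in a fit that called 15.3% of genes higher and 12.1% lower, and it also passed with all 4 libraries under limma-voom (0.24, adjusted p = 0.0296).

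Cathepsin C, or dipeptidyl peptidase I, activates the serine proteases of neutrophil and lymphocyte granules. Ctsc (ENSMUSG00000030560, chromosome 7, 87927293 to 87960096, plus strand) stood at 1133 and 939 CPM in cKO and at 826 and 871 CPM in WT. Both cKO libraries were above both WT libraries, but cKO replicate 2 only slightly. This gave a log2 fold change of 0.29 (SE 0.15, 95% interval -0.05 to 0.62, adjusted p = 0.478, edgeR).

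Cathepsin H is mainly an aminopeptidase. Ctsh (ENSMUSG00000032359, chromosome 9, 89936205 to 89958142, plus strand) stood at 243 and 245 CPM in cKO and at 244 and 399 CPM in WT. WT replicate 2 alone was high, and the other 3 libraries were alike. The log2 fold change of -0.40 (SE 0.25, 95% interval -0.98 to 0.17, adjusted p = 0.572, edgeR) became 0.020, with an adjusted p of 0.979, when WT replicate 2 was left out. Without WT replicate 1 it was -0.67 (adjusted p = 0.00329, edgeR). The estimate for Ctsh was thus set by which WT library was used.

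Cathepsins S and L are the main endopeptidases of the group. Cathepsin S stays active at neutral pH and removes the invariant chain from MHC class II molecules in antigen-presenting cells. Ctss (ENSMUSG00000038642, chromosome 3, 95434097 to 95463714, plus strand) stood at 6649 and 7010.2 CPM in cKO and at 7799 and 8728 CPM in WT. Both cKO libraries were below both WT libraries. The log2 fold change was -0.28 (SE 0.10, 95% interval -0.50 to -0.05), with an unadjusted p of 0.0221 and an adjusted p of 0.304 (edgeR). It passed with limma-voom (-0.31, adjusted p = 0.00397) and without WT replicate 1 (-0.32, adjusted p = 0.0103, edgeR), and not without WT replicate 2 (-0.18).

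Cathepsin L degrades endocytosed and autophagic protein and, in the mouse thymus, the invariant chain. Ctsl (ENSMUSG00000021477, chromosome 13, 64507151 to 64518704, minus strand) stood at 2031 and 2017 CPM in cKO and at 2069 and 2609 CPM in WT. The cKO libraries were below both WT libraries, by little in the case of WT replicate 1. The log2 fold change of -0.21 (SE 0.14, 95% interval -0.52 to 0.10, adjusted p = 0.583, edgeR) shrank to -0.02 without WT replicate 2. Without WT replicate 1 it was -0.33 and passed (adjusted p = 0.0245, edgeR).

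Cathepsin O is a little-studied cysteine protease, and its gene was barely sampled. Ctso (ENSMUSG00000028015, chromosome 3, 81839908 to 81864032, plus strand) had 26 and 36 counts in cKO and 17 and 27 in WT, or 17.8 and 24.3 CPM against 18.7 and 9.26 CPM. The groups overlapped. With a log2 fold change of 0.62 (SE 0.77), the 95% interval from -1.14 to 2.37 was the widest of the 9, so a difference of the size seen for Ctsz was not detectable at this depth.

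The aspartic proteases were cathepsins D and E. Cathepsin D is the main aspartic protease of lysosomes. Ctsd (ENSMUSG00000007891, chromosome 7, 141929648 to 141941775, minus strand) stood at 1956 and 2033 CPM in cKO and at 2376 and 1839 CPM in WT. The cKO libraries lay between the WT libraries. Its log2 fold change was -0.08 (SE 0.14, 95% interval -0.40 to 0.24, adjusted p = 0.883, edgeR), and its sign turned without WT replicate 1 (0.15, adjusted p = 0.361). Cathepsin E is an endosomal protease of immune cells and gastric epithelium. Ctse (ENSMUSG00000004552, chromosome 1, 131566044 to 131603243, plus strand) had 0 counts in both cKO libraries and 1 in each WT library. A count of 0 allows up to 3 counts, or 2.04 and 2.03 CPM of the library total in cKO replicates 1 and 2. No fold is given for so few counts.

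Cathepsin A, a serine carboxypeptidase, also holds the lysosomal sialidase and beta-galactosidase in a stable complex. Ctsa (ENSMUSG00000017760, chromosome 2, 164674793 to 164682952, plus strand) stood at 1414 and 1336 CPM in cKO and at 1585 and 1498 CPM in WT. Both cKO libraries were below both WT libraries. This gave a log2 fold change of -0.16 (SE 0.12, 95% interval -0.44 to 0.11, adjusted p = 0.640, edgeR). Of its partners, Glb1, the beta-galactosidase gene, had 91.0 ± 11.4 CPM in cKO against 182 ± 24.7 CPM in WT (log2 -0.99, SE 0.27, adjusted p = 0.151, edgeR). Glb1 passed in 3 of 13 alternative fits, limma-voom and those with a WT library left out. Without WT replicate 2 its log2 fold change was -1.12. Neu1, the sialidase gene, had 123 ± 25.5 and 135 ± 24.7 CPM (SD, n = 2 each).

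**Figure D2:**
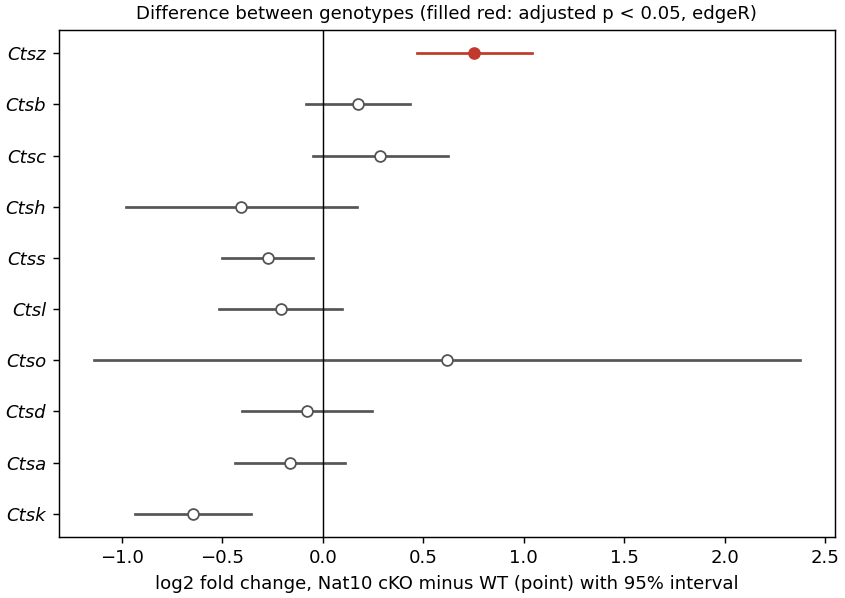
Log2 fold change between genotypes (cKO minus WT) of the 9 tested cathepsin genes and of Ctsk, with the 95% interval of the edgeR fit. Filled red marks an adjusted p under 0.05, which Ctsz alone reached, at 0.75. The interval of Ctso is the widest.

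Across the group, 5 of the 9 genes had cKO libraries that did not overlap the WT libraries, 2 above (Ctsz and Ctsc) and 3 below (Ctsa, Ctsl and Ctss). With 2 libraries a side this is common: 45.2% of all genes tested did not overlap, 22.7% with cKO above and 22.6% with cKO below. The count of 5 of 9 is close to that background.

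Setting Ctsz against the other cathepsins within each library needs no scaling between libraries. Ctsz made up 14.7% and 12.6% of the summed cathepsin counts in cKO replicates 1 and 2 and 8.94% and 7.83% in WT replicates 1 and 2. The counting interval of the lower cKO value (12.3% to 12.9%) lay above that of the higher WT value (8.60% to 9.29%). Ctss made up 22.8% and 23.1% in cKO and 26.6% and 31.2% in WT. Ctsb made up 39.3% and 42.6% in cKO and 40.2% and 35.1% in WT, which overlap. These shares also depend on coding length, so they compare 1 gene between libraries and not genes with each other.

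**Figure D3:**
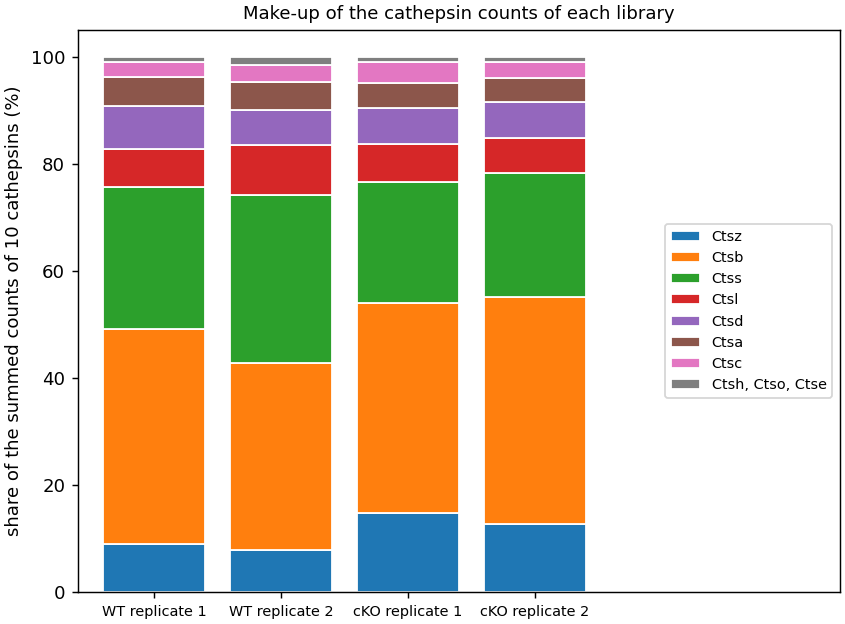
Share of each gene in the summed counts of the 10 cathepsins, in percent, for each library. The Ctsz segment at the base is 14.7% and 12.6% in cKO against 8.94% and 7.83% in WT, and the Ctss segment is smaller in the cKO libraries.

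The ratio of Ctsz to Ctss counts was 0.644 and 0.546 in cKO replicates 1 and 2 and 0.337 and 0.251 in WT replicates 1 and 2, 2.04 times higher in cKO. The ratio to Ctsb was 0.374 and 0.296 against 0.222 and 0.223, or 1.49 times higher. Both cKO libraries thus exceeded both WT libraries in each ratio. Ratios were computed to 8 other cathepsins, and for 7 of them the groups did not overlap, with cKO 1.39 times (Ctsc) to 2.16 times (Ctsh) higher. The exception was Ctso, with its few counts. All of these ratios share the Ctsz counts, which passed the test in the same libraries, so they are not separate observations. An exact two-sided permutation test of 2 against 2 libraries cannot give a p below 0.333, which each of these 7 ratios reached, so this test cannot fall under 0.05 with 4 libraries.

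**Figure D4:**
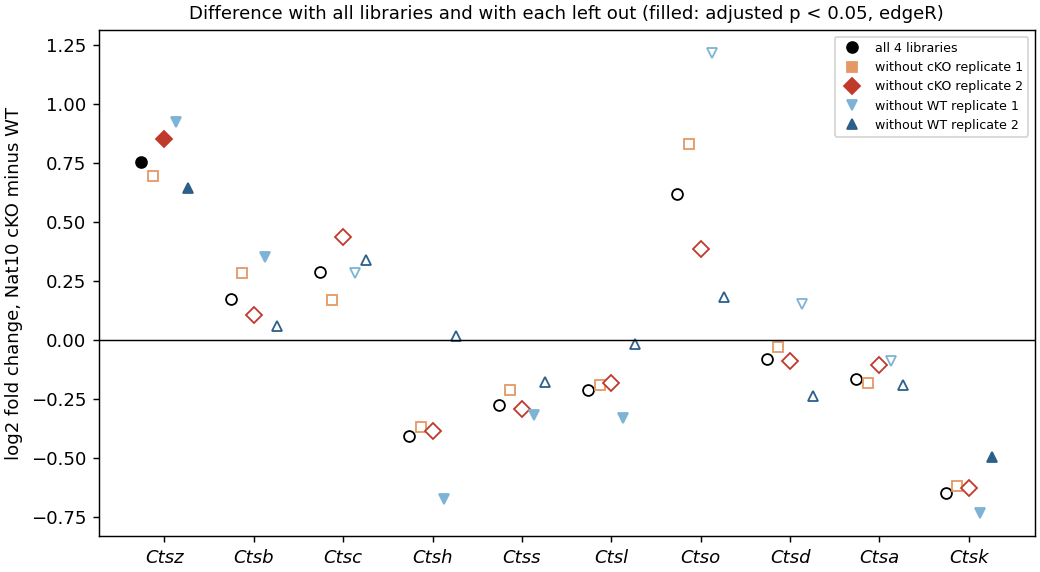
Log2 fold change (cKO minus WT) of each gene with all 4 libraries and with each library left out in turn, filled where the adjusted p was under 0.05 (edgeR). Ctsz stays between 0.64 and 0.93. Ctsh and Ctsl lie near 0 without WT replicate 2, and Ctsb, Ctsh, Ctss and Ctsl pass without WT replicate 1.

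Leaving out each library in turn moved Ctsz between 0.64 and 0.93. The cathepsins called without WT replicate 1 numbered 2 higher (Ctsz and Ctsb) and 3 lower (Ctsh, Ctss and Ctsl), where 15.3% and 12.1% of all genes were called. Without WT replicate 2, the library that stood apart, Ctsz was the 1 member called higher and 0 were called lower, where 2.94% and 2.55% of all genes were called. In these fits the remaining WT library is taken to vary like the cKO pair.

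Ctsk and Ctss are neighbours on chromosome 3, 17424 bases apart and on the same strand. Ctsk (ENSMUSG00000028111, chromosome 3, 95406567 to 95416673) stood at 1567 and 1575 CPM in cKO and at 2240 and 2673 CPM in WT. Both cKO libraries were below both WT libraries, with a log2 fold change of -0.65 (SE 0.13, 95% interval -0.93 to -0.36) and an adjusted p of 0.0507 (edgeR), just above 0.05. It passed in 8 of 13 alternative fits, and without WT replicate 2 the value was -0.50 (adjusted p = 0.00247, edgeR). Within a library the ratio of Ctsz to Ctsk was 2.73 and 2.43 in cKO and 1.17 and 0.819 in WT, 2.63 times higher in cKO.

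Of the 13 cathepsin genes outside the group and including Ctsk, 10 had no count in any library. Ctsf, the gene of cathepsin F, another papain-family protease, had 34 and 36 counts in cKO and 42 and 199 in WT (log2 -1.28, SE 0.46, adjusted p = 0.304, edgeR). Ctsg, a serine protease of neutrophil granules, had 0 and 0 counts in cKO and 3 and 4 in WT.

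The start regions of 3 other members are shown for motifs of known regulators of lysosomal and interferon-induced genes. In lysosomal genes the E-box core CACGTG lies within the sites bound by TFEB and its relatives, and GAAANNGAAA is the core of interferon-stimulated response elements. The motifs are in capitals, and the windows are chr2:164833673-164833772 (plus strand) for Ctsa, chr7:142387903-142388077 (minus strand) for Ctsd and chr3:95526676-95526785 (plus strand) for Ctss, all in GRCm38.p6.
Ctsa: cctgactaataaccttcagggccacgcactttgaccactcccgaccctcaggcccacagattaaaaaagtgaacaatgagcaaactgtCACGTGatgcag
Ctsd: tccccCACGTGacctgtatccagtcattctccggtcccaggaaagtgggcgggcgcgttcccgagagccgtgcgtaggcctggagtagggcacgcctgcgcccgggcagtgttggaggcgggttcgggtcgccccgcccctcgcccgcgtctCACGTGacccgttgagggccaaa
Ctss: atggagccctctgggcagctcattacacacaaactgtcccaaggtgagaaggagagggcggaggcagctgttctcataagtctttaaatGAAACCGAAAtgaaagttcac
Among the 7 members in the table, with 8 windows, CACGTG was in windows of Ctsa, Ctsd and Ctsl, and in 7.15% of all promoters. Ctsa had 2 windows, and only the window shown in part above held the motif. A further match in that window begins 5 bases past the first base. The longer palindrome TCACGTGA, which contains CACGTG, was in the same window of Ctsa and in that of Ctsd, and in 0.974% of all promoters. GAAANNGAAA, on both strands, was in the windows of Ctss and Ctso and in 3.44% of all promoters. None of Ctsa, Ctsd, Ctsl, Ctss or Ctso passed the test, and the match of letters does not show that a factor binds.

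Inhibitors of the cathepsins were measured through few genes. Cst3, the gene of cystatin C, a secreted inhibitor of cysteine cathepsins, had 708 and 642 CPM in cKO against 1104 and 1260 CPM in WT. It fell by 0.81 on the log2 scale (SE 0.14, adjusted p = 0.0326, edgeR), with both cKO libraries below both WT libraries. The call was lost when either cKO library was left out, with an adjusted p of 0.119 without replicate 1 and of 0.252 without replicate 2. Cstb, the gene of the cytosolic inhibitor stefin B, had 246 ± 6.86 CPM in cKO against 301 ± 18.6 CPM in WT (SD, n = 2 each), a log2 fold change of -0.29 (SE 0.19, adjusted p = 0.596, edgeR). Of 10 listed inhibitors these 2 were tested and 5 had no count. Of the 2, 1 fell, where 0.754% of all genes were called lower, and 1 did not pass. Their median log2 fold change was -0.55.

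None of 11 genes of cathepsin sorting, processing and partners passed (edgeR), with a median log2 fold change of -0.11, 1 higher and 3 lower at an unadjusted p under 0.05 (5.63% and 6.5% of all genes). DESeq2 called 0 higher and 1 lower (2.59% and 2.43% of all genes), and limma-voom 0 and 2 (5.18% and 2.35% of all genes). Lgmn, the gene of legumain, an asparagine-specific protease that processes cathepsin precursors, came closest. It had 1196 and 1165 CPM in cKO against 1748 and 2647 CPM in WT, with both cKO libraries lower (log2 -0.90, SE 0.18, adjusted p = 0.0587, edgeR). Lgmn passed in 7 of 13 alternative fits, among them DESeq2 (-0.89, adjusted p = 0.000113), limma-voom (-0.98, adjusted p = 0.000168) and the replicate block (-0.87, adjusted p = 0.0177, edgeR). Leaving out WT replicate 2 moved it to -0.55, which passed (adjusted p = 0.00113, edgeR). Psap, the gene of the saposin precursor, had 13035 ± 1128 CPM in cKO against 13064 ± 376 in WT (SD, n = 2 each). Without WT replicate 2 the log2 fold change of Glb1, given above, was -1.12, and that of M6pr, a mannose-6-phosphate receptor gene, was 0.63.

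None of the 5 transcription factors and regulators of lysosomal genes passed (edgeR), with a median log2 fold change of 0.04. At an unadjusted p under 0.05 (5.63% of all genes higher, 6.5% lower), 1 was higher and 0 lower. DESeq2 called none (2.59% of all genes higher, 2.43% lower) and limma-voom 1 higher (5.18% of all genes). Flcn, the gene of folliculin, which keeps TFEB out of the nucleus, had 89 and 41 counts in cKO and 16 and 5 in WT (log2 2.37, SE 0.99, adjusted p = 0.384, edgeR). Tfe3 stood at 56.1 ± 5.98 CPM in cKO against 42.9 ± 11.1 CPM in WT (SD, n = 2 each; log2 0.41, adjusted p = 0.762, edgeR). The group's counts were low, with Tfeb at 12 to 46 in the 4 libraries.

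Among proteins that cathepsins cleave, 1 of 4 tested rose, where 0.641% of all genes were called higher, and 3 did not pass. The median log2 fold change of the 4 was 1.55. DESeq2 and limma-voom each called 2 of them higher and 0 lower. Of all genes DESeq2 called 2.59% higher and 2.43% lower, and limma-voom 5.18% and 2.35%. The log2 fold change was positive for 3 of the 4 and negative for Tlr9 (-1.20, SE 0.62, adjusted p = 0.481, edgeR). Cd74, the gene of the invariant chain that cathepsin S removes, had 438 and 506 CPM in cKO against 99.3 and 131 CPM in WT. It rose by 2.02 on the log2 scale (SE 0.22, adjusted p = 0.00420, edgeR), with both cKO libraries above both WT libraries, and passed in all 13 alternative fits. Ctss, given above, lay in the other direction without passing. Tlr7, an endosomal RNA receptor that needs proteolysis to signal, had 416 ± 40.7 CPM in cKO against 200 ± 48.0 CPM in WT (SD, n = 2 each), a log2 fold change of 1.07 (SE 0.22, adjusted p = 0.0634, edgeR). Tlr7 passed in 7 of 13 alternative fits, with 0.85 without WT replicate 2 (adjusted p = 0.00112, edgeR) and 1.08 with the replicate block (adjusted p = 0.0247, edgeR). The granule protease genes Gzma, Gzmb and Prtn3, whose products cathepsin C activates, had no count, and Elane had 1 and 11 in the WT libraries and 0 in cKO.

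In the wider lysosome, 0 of 33 tested hydrolase and membrane genes passed in either direction (edgeR), with a median log2 fold change of -0.19. At an unadjusted p under 0.05 (5.63% of all genes higher, 6.5% lower), 1 was higher and 5 lower. DESeq2 called 0 and 0 (2.59% and 2.43% of all genes), and limma-voom 1 and 4 (5.18% and 2.35% of all genes). The smallest p-values were those of Manba, the beta-mannosidase gene (150 ± 3.77 CPM in cKO, 279 ± 2.39 in WT, adjusted p = 0.109, edgeR), and Arsb, the arylsulfatase B gene (48.6 ± 3.96 and 124 ± 24.6, adjusted p = 0.113). Each passed in 4 of 13 alternative fits: limma-voom, no filter on low counts, and those with a WT library left out. Without WT replicate 2 the log2 fold changes of Manba and Arsb were -0.87 and -1.52. In the deposited annotation all 10 cathepsins belong to the Lysosome pathway. Of its other genes 100 were tested, 0 passed, 7 were higher and 17 lower at an unadjusted p under 0.05 (5.63% and 6.5% of all genes), and the median was -0.16. DESeq2 called 0 higher and 3 lower of these 100, where it called 2.59% and 2.43% of all genes. Limma-voom called 4 and 9, where it called 5.18% and 2.35% of all genes.

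Markers of other cells moved between the same libraries. The 12 stromal and osteoblast markers, of which 11 had counts, summed to 584 and 549 CPM in cKO against 4310 and 5656 CPM in WT. Of the 9 tested, 6 fell (Bgn, Col1a1, Col1a2, Col3a1, Col6a2 and Sparc), where 0.754% of all genes were called lower. Col1a1 had 246 and 244 counts in cKO and 1667 and 7675 in WT. Pdgfrb and Runx2 lay the other way on few counts, without passing (edgeR). Pdgfrb had 34 and 19 counts in cKO against 8 and 5 in WT (log2 1.87), and Runx2 13 and 19 against 4 and 0 (log2 2.53). The 10 neutrophil markers, 8 with counts and with Ly6g and Prtn3 at 0, summed to 836 and 785 CPM in cKO against 1337 and 1524 in WT. Of the 4 tested, 0 passed (edgeR), though all 4 log2 fold changes were negative. The smallest p-values were those of Ngp (log2 -1.29, adjusted p = 0.0881, edgeR) and S100a9 (log2 -0.74, adjusted p = 0.113, edgeR). The 7 dendritic cell markers, with Cd209a and Xcr1 at 0, summed to 667 and 803 CPM in cKO against 214 and 244 in WT. Of 3 tested, 2 rose, the MHC class II presentation genes Cd74 and H2-Aa, where 0.641% of all genes were called higher. The third, Itgax, the gene of the integrin CD11c, had 49.6 CPM in cKO and 87.4 CPM in WT (log2 -0.82, adjusted p = 0.368, edgeR), and Zbtb46 and Flt3 had at most 1 count in any library. The 9 osteoclast markers summed to 8555 and 7930.4 CPM in cKO against 12581 and 13366 in WT, with 1 of 9, Mmp9, falling. The log2 fold change was negative for 8 of the 9 and positive for 1, Calcr. Calcr had few counts, 12 and 14 in cKO against 2 and 3 in WT (log2 2.50), and did not pass (edgeR). The 8 monocyte and macrophage markers summed to 39580 and 35008 CPM in cKO against 53615 and 68717 in WT, with Csf1r and Lyz2 falling. Lyz2 alone had a mean of 21282 CPM in cKO and 39855 CPM in WT. The log2 fold change was negative for 5 of the 8. It was positive for 3, Mrc1 (1.25), Fcgr1 (0.47) and Cd14 (0.07), which did not pass (edgeR). The part of these cells in the cathepsin values was not tested. In bulk libraries fewer cells of a type and less RNA per cell cannot be told apart, and without matched RNA-seq neither can mRNA level and translation.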

How the data were processed

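Per the file headers, the authors deposited raw counts per gene, whole numbers in 1 table, for 2 Nat10 cKO and 2 WT ribosome profiling libraries. Tools named in the submitters' processing notes are HTSeq, STAR, Bowtie and fastp, with no roles, and the build is GRCm39 (mm39). The counted region, footprint lengths, strand, duplicates and the handling of multi-mapping reads are not stated there, so counts of related cathepsin genes could share reads. The intervals of shares cover counting error only. Those of log2 fold changes come from the fit and also take in the spread between libraries.

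Counts were fitted with edgeR 4.0.16 (R 4.3.3): filterByExpr (minimum count 10, total 15), TMM factors, robust quasi-likelihood test on genotype, Benjamini-Hochberg over 7953 genes, threshold 0.05. Alternatives used DESeq2 1.42.0, limma-voom (3.58.1), other scalings and filters, the replicate block, and each library left out. The fit was tested on simulated data. The difference between replicates 1 and 2 in cKO was uncorrelated with that in WT across genes (-0.02). With 2 libraries per genotype, and WT replicate 2 apart, this cannot exclude a pairing. Every pair of libraries differed beyond sampling noise (chi-square per degree of freedom at least 5.19).

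All 10 members were named. So were Ctsk, Nat10, other cathepsins with counts, and, from each of the 5 lists of cathepsin-related and lysosomal genes, those past the threshold, or else the 2 of smallest p. Cell markers and Cstb, Neu1, Psap, Tlr7, Tlr9, Tfeb, M6pr, Cst7, the stefin A and the granule protease genes were named after their values were seen. The motifs were chosen after the sequences were seen. Members and lists were chosen with earlier results of these data known. Coding lengths were not used here, so levels were not ranked between genes.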

Additional observations from a re-analysis of the deposited data

How the results depend on the processing

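Ctsz kept its direction in all 13 alternatives and passed in 12. Its log2 fold change ranged from 0.64 to 0.93 with a library left out, and the highest adjusted p, 0.0676 (edgeR), came without cKO replicate 1. The number of cathepsins called higher was 1 with all libraries, 2 with limma-voom and 0 to 2 with a library left out. The number called lower was 0, 1 with limma-voom and 0 to 3 with a library left out. Of all genes, 51 were higher and 60 lower. These counts became 94 and 97 with a CPM filter of 5 in all libraries, 113 and 106 with DESeq2, 184 and 179 with no filter, and 412 and 187 with limma-voom, where 68.8% of calls were higher against 45.9%. With a library left out they ran from 35 to 1354 higher and from 38 to 1066 lower. Signs turned for Ctsd with limma-voom (0.0048) and without WT replicate 1, for Ctsh without WT replicate 2, and for Nat10 without cKO replicate 2 (0.06) and without WT replicate 1. With a library left out, log2 fold changes ran from -0.24 to 0.15 for Ctsd, -0.67 to 0.020 for Ctsh and -0.51 to 0.25 for Nat10, and none of those with a turned sign passed. The cause was not tested. With replicate number as a block, the log2 fold change of Ctsz was 0.76 (adjusted p = 0.00735, edgeR), the same cathepsin counts of 1 and 0 were found, and 67 genes were higher and 76 lower. Ctsk passed under the block (adjusted p = 0.0401), as did Lgmn (0.0177) and Tlr7 (0.0247). Adding Ctsk to the sum left the share of Ctsz within 1 SD (12.96% in cKO and 7.73% in WT). DESeq2 gave Ctso no adjusted p. The order of cathepsins per coding length was not run, since coding lengths were not used here. Few counts limit Ctso and Ctse.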

Other observations

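Stefin A genes, which encode intracellular inhibitors of cysteine cathepsins, were nearly absent. Stfa2l1 had 33 counts in WT replicate 2 and 0 in the other 3 libraries, Stfa3 had 2 in cKO replicate 2 and 4 in WT replicate 1, and Stfa1 and Stfa2 had none. Cst7, the gene of cystatin F, an inhibitor of cathepsins in the endosomes of immune cells, had 5 and 12 counts in cKO against 2 and 0 in WT. None of these genes had enough counts for the test. M6pr, the gene of the cation-dependent mannose-6-phosphate receptor, had 521 ± 35.7 CPM in cKO against 356 ± 23.7 CPM in WT (SD, n = 2 each), with both cKO libraries above both WT libraries. Its log2 fold change of 0.55 (SE 0.17) did not pass (adjusted p = 0.206, edgeR), and was 0.63 without WT replicate 2. M6pr passed in 2 of 13 alternative fits, those with a WT library left out.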
